A study of Mus musculus with 6 samples.

Results

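The genes described here are the ligands and receptors of the platelet-derived growth factor (PDGF) system, together with the proteoglycan NG2. They are the ligand genes Pdgfa, Pdgfb, Pdgfc and Pdgfd, the receptor genes Pdgfra and Pdgfrb, the receptor-like gene Pdgfrl, and Cspg4, which encodes NG2. They were taken by symbol from the array's annotation, each had 1 probe set with a single gene symbol, and they make up 8 of the 19938 genes tested. The RNA came from immortalized neural precursor-like cells that were wild type for Lgi1 (3 arrays) or carried a homozygous deletion of Lgi1 (knock-out, 3 arrays), a gene for a secreted neuronal protein linked to epilepsy. Cells of both genotypes came from the brain of C57BL/6J embryos at day 13.5, and after immortalization they were kept in RPMI medium with 1% fetal bovine serum. The labels speak of biological replicates and do not state how many embryos, lines or clones they stand for, so each p-value rests on the spread between these samples, and that spread may be technical.

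PDGF ligands are secreted dimers that bind receptor tyrosine kinases on the cell surface. The alpha receptor (Pdgfra) responds to the A, B and C chains, and the beta receptor (Pdgfrb) mainly to the B and D chains. In the developing brain the alpha receptor marks oligodendrocyte precursors and the beta receptor marks pericytes, the cells that wrap small vessels, while connective tissue cells such as those of the meninges carry both. NG2 is a membrane chondroitin sulfate proteoglycan found on oligodendrocyte precursors and pericytes, where it can hold PDGF-AA near the alpha receptor.

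All 6 arrays had a median log2 value between 6.36 and 6.41, and the precision of each comparison is limited by the 3 arrays per genotype. For a background level, 1194 receptor genes of the nose (olfactory and vomeronasal) were taken, of which 95% had a mean under 5.68. Where a gene's mean was under 5.68 in 1 genotype, its difference is a bound, given against 5.68 and marked as such. The genotypes also differed in genes of the sex chromosomes: Xist averaged 4.64 in the wild type against 12.44 in the knock-out, and the Y-linked Eif2s3y 10.19 against 4.67. Xist was at most 4.80 on every wild-type array and at least 12.41 on every knock-out array. Since this difference follows the genotype on all 6 arrays, its part in the results below cannot be told apart from that of the deletion. Lgi1 lay under 5.68 in both genotypes (means 4.77 and 4.55) and could not serve as a check of the labels. Of all genes, 6296 (31.6%) passed the test for a difference between genotypes, 14% of all genes as higher and 17.6% as lower in knock-out cells (limma, adjusted p under 0.05).

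The PDGF system differed between the genotypes in each of its 8 genes. In knock-out cells the alpha receptor, the ligands Pdgfc and Pdgfd, the beta receptor and NG2 were higher, and the ligands Pdgfa and Pdgfb and the receptor-like Pdgfrl were lower. The sizes ran from at least 6.36-fold for Pdgfra, taken against the background level, to 1.17-fold for Pdgfrb. All 8 genes passed, beside 31.6% of all genes (35.1% with the replicate number as a block, where all 8 passed too). Their median absolute log2 difference was 0.71 beside 0.11 over all genes. The share of all genes includes many with little signal. By their mean over all 6 arrays, all 8 lay above the median level, and of the 9969 genes there 5337 passed. Wild-type Pdgfra, wild-type Cspg4 and knock-out Pdgfb had means under that median, so these genes lay above it through the other genotype. The choice of genes by level is thus not independent of the difference between genotypes, and the comparison with the 5337 is a description only. Only Pdgfra and Pdgfc rose and only Pdgfb fell by at least 2-fold among the 8, a size reached with a pass by 5.32% of all genes, 3.05% upward and 2.27% downward. The arrays of one genotype lay wholly above those of the other for all 8 genes and for 42.3% of all genes. Because RNA of whole cultures was measured, fewer cells of a type and less RNA per cell cannot be told apart.

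**Figure D1:**
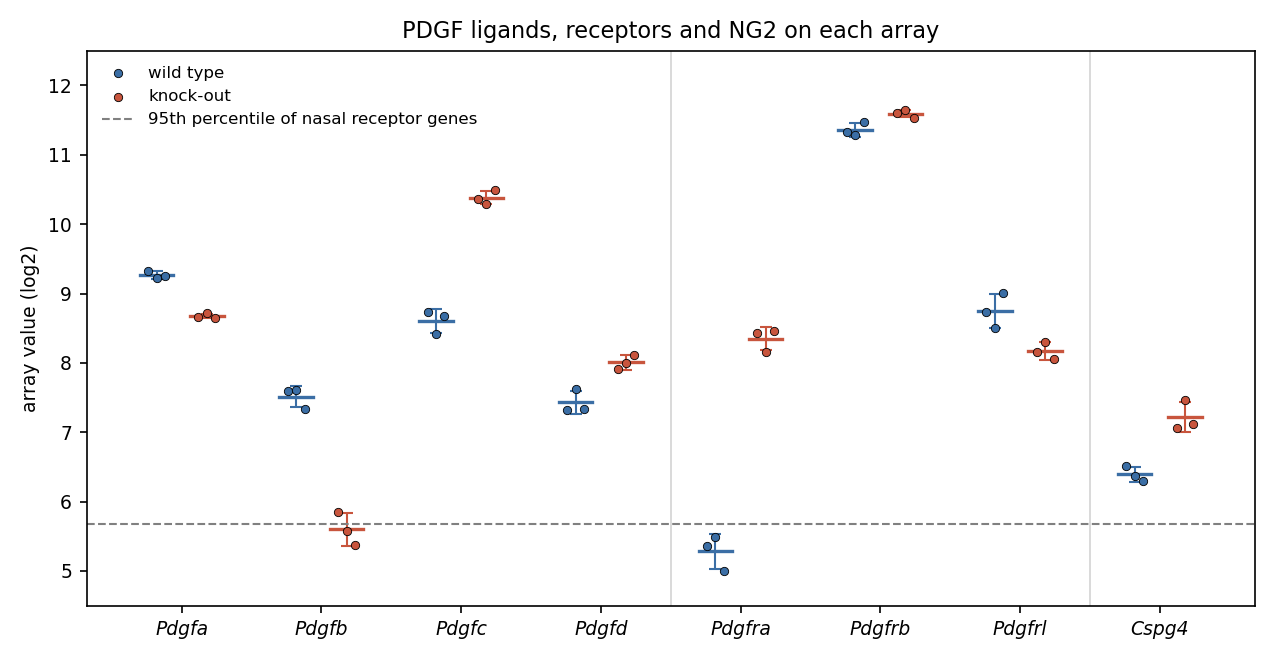
Array value (log2) of each gene on the 3 wild-type (blue) and 3 knock-out (red) arrays, with the mean (bar) and SD (whisker, n = 3); the dashed line is the background level of 5.68. The arrays of the genotypes do not overlap for any of the 8 genes, and only wild-type Pdgfra and knock-out Pdgfb have means under the line.

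The alpha receptor Pdgfra had the largest change of the 8. Wild-type arrays gave log2 values of 5.37, 5.49 and 5.003, and knock-out arrays gave 8.43, 8.16 and 8.46. All 3 wild-type arrays lay under the background level and all 3 knock-out arrays well above it, with a gap of 2.67 between the nearest arrays. The means were 5.29 ± 0.253 and 8.35 ± 0.167 (SD, n = 3 each), a fitted log2 difference of +3.06 (SE 0.13, 95% confidence interval 2.78 to 3.34, limma adjusted p = 2.8e-08). Since wild-type cells showed no signal over background, the size of the rise is a bound, and set against 5.68 the knock-out mean was at least 2.67 higher on the log2 scale. Fitted differences of that bound or more, in either direction, were found for 1.10% of all genes.

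The beta receptor Pdgfrb, the pericyte receptor, was bright on every array. It read 11.33, 11.28 and 11.47 (log2) in wild-type cells against 11.60, 11.64 and 11.54 in knock-out cells, so the nearest arrays of the genotypes were 0.065 apart. The means were 11.36 ± 0.0988 and 11.59 ± 0.0524 (SD, n = 3 each). The log2 difference of +0.23 (SE 0.07, 95% confidence interval 0.08 to 0.39) passed narrowly (limma adjusted p = 0.028), and 30.7% of all genes had a difference at least as large. The call was lost in limma without wild-type replicate 1 (log2 +0.21, adjusted p = 0.083), wild-type replicate 2 (+0.19, adjusted p = 0.099), knock-out replicate 1 (+0.23, adjusted p = 0.072) or knock-out replicate 2 (+0.21, adjusted p = 0.096). Over all its alternatives the adjusted p of Pdgfrb lay between 0.013 and 0.099.

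The changes of the receptors were also set against each other within arrays. The Pdgfra value minus the Pdgfrb value was −5.96, −5.79 and −6.47 for wild type against −3.17, −3.48 and −3.07 for knock-out. The wild-type side rests on Pdgfra values under background. With those held at 5.68, an alternative chosen after seeing the data, the contrast went from −5.68 ± 0.0988 to −3.24 ± 0.214 (SD, n = 3 each), a difference of at least 2.44, against 2.83 for the values as deposited. An exact two-sided permutation test over the 6 arrays gave p = 0.1 for both, the smallest value that 3 against 3 arrays allow. That test does not use the replicate numbers. With arrays of the same number taken as pairs, an exact test over sign changes gave p = 0.25 for the values as deposited, the smallest that 3 pairs allow.

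Pdgfrl encodes a secreted protein that resembles the outer part of a PDGF receptor and has no kinase domain. It moved opposite to both receptors, at log2 values of 8.73, 8.51 and 9.003 (wild type) against 8.16, 8.30 and 8.05 (knock-out). The wild-type arrays spread over more than the gap of 0.20 that separates the groups. Its means were 8.75 ± 0.249 and 8.17 ± 0.127 (SD, n = 3 each), and the log2 value fell by 0.58 (SE 0.12, limma adjusted p = 0.0036). Without moderation of the variances, Pdgfrl did not pass (adjusted p = 0.084).

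**Figure D2:**
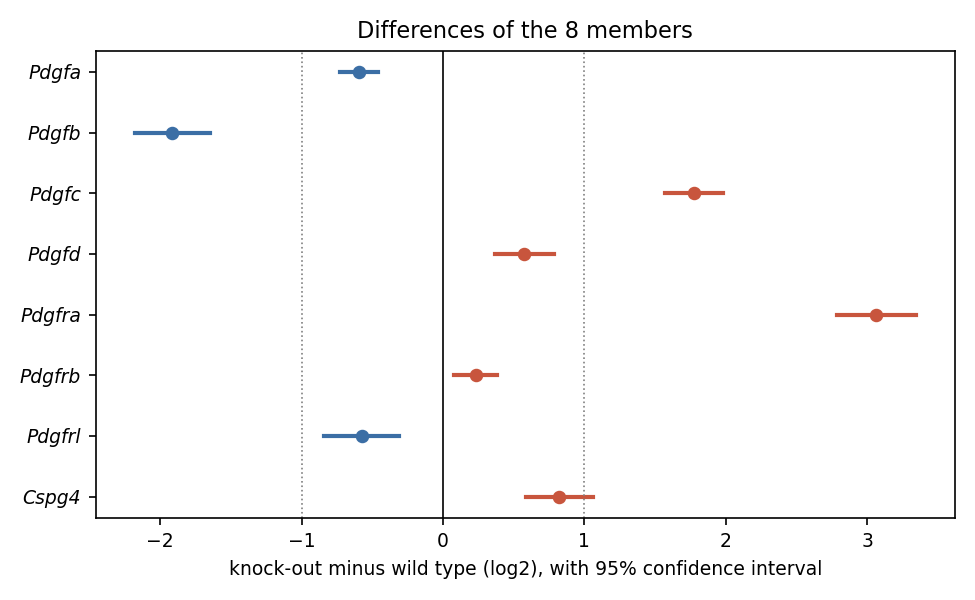
Log2 difference (knock-out minus wild type) of the 8 genes from the limma fit, with 95% confidence intervals; dotted lines mark 2-fold, and red and blue mark genes higher and lower in knock-out cells. Pdgfra (+3.06 as fitted, a bound of +2.67 against background), Pdgfc (+1.77) and Pdgfb (−1.91) lie beyond the dotted lines, and the interval of Pdgfrb (0.08 to 0.39) comes closest to 0.

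Of the ligand genes, Pdgfc and Pdgfd rose and Pdgfa and Pdgfb fell. The C and D chains carry an extra domain, called CUB, and stay latent until a protease cuts it off outside the cell, whereas the A and B chains lack it and are processed within the cell. The genes of the latent ligands were the pair that rose, and those without the domain the pair that fell. This grouping was made with the values known and was not tested.

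Pdgfc, whose product acts mainly through the alpha receptor, measured 8.74, 8.42 and 8.67 (log2) on wild-type arrays against 10.36, 10.30 and 10.49 on those of the knock-out. Every array of both genotypes lay far above background, and 1.56 separated the nearest arrays. The means of 8.61 ± 0.17 and 10.38 ± 0.0978 (SD, n = 3 each) gave a log2 difference of +1.77 (SE 0.09, 95% confidence interval 1.57 to 1.98, limma adjusted p = 1.7e-07), or 3.42-fold. A difference as large was seen in 2.40% of all genes.

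Pdgfd, which encodes a ligand of the beta receptor, measured 7.33, 7.63 and 7.34 (log2) in wild-type cells, against 7.91, 7.996 and 8.12 in cells with the deletion. Wild-type replicate 2 was the highest of its group and came within 0.28 of the lowest knock-out array. Pdgfd rose by 0.58 on the log2 scale (means 7.43 ± 0.17 and 8.01 ± 0.106, SD, n = 3 each, SE of the difference 0.09, limma adjusted p = 8.1e-04).

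Pdgfb encodes the chain that binds both receptors and, when released by endothelium, recruits pericytes. The 3 wild-type arrays gave 7.60, 7.61 and 7.34 (log2) and the 3 knock-out arrays 5.85, 5.57 and 5.38. The wild-type arrays were all above background, while knock-out replicates 2 and 3 were under it and knock-out replicate 1 just over it. From 7.51 ± 0.154 to 5.60 ± 0.24 (SD, n = 3 each), the log2 value fell by 1.91 (SE 0.12, 95% confidence interval −2.18 to −1.65, limma adjusted p = 7.4e-07). Set against 5.68 in place of the knock-out mean, the fall was 1.83 on the log2 scale.

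Pdgfa encodes the chain that drives division of oligodendrocyte precursors through the alpha receptor. Wild-type cells gave 9.32, 9.22 and 9.26 (log2), and knock-out cells 8.66, 8.71 and 8.65. Both groups were tight, with SDs of 0.0516 and 0.0342 (n = 3 each) around means of 9.27 and 8.67, and the gap between them was 0.51. The log2 value fell by 0.59 (SE 0.06, limma adjusted p = 3.2e-05), or 1.51-fold.

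Cspg4, the gene of NG2, stood at 6.52, 6.37 and 6.30 (log2) in the wild type and at 7.07, 7.47 and 7.12 in the knock-out. All 6 arrays were above the background level, and knock-out replicate 2 was the highest. The means of 6.40 ± 0.109 and 7.22 ± 0.217 (SD, n = 3 each) differed by +0.82 on the log2 scale (SE 0.11, 95% confidence interval 0.59 to 1.06, limma adjusted p = 1.7e-04). NG2 and the alpha receptor both rose.

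**Figure D3:**
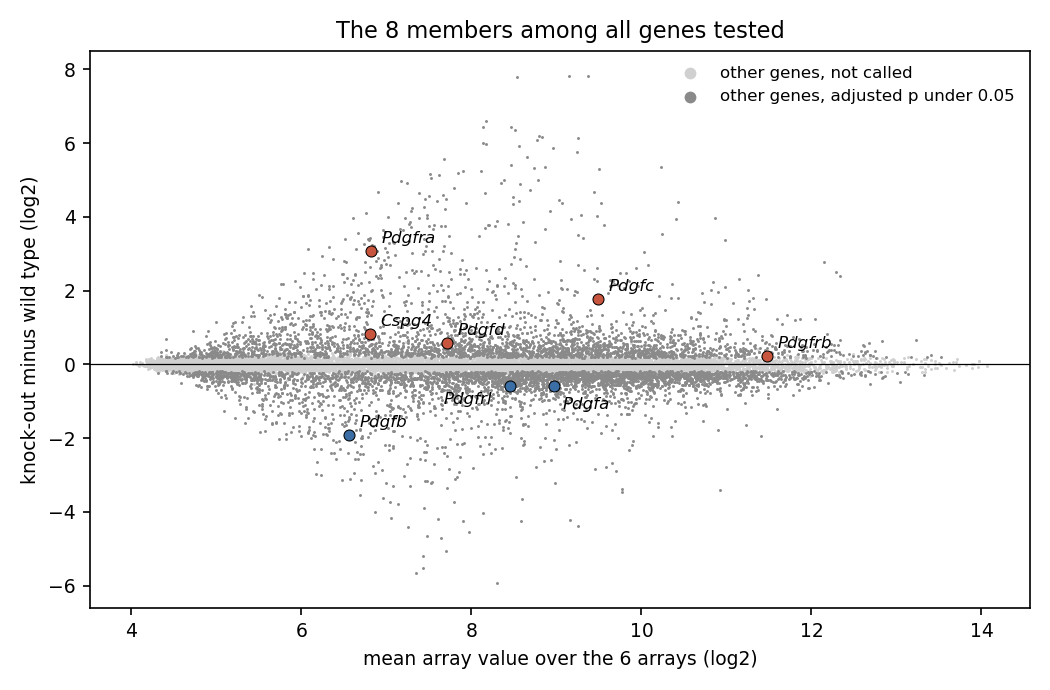
Log2 difference (knock-out minus wild type) against the mean array value over the 6 arrays for all 19938 genes, in dark grey where the adjusted p was under 0.05; the 8 genes are drawn larger, red where higher and blue where lower in knock-out cells. Pdgfra lies at a fitted difference of +3.06, with its wild-type mean under background, and Pdgfrb, with a mean of 11.48, sits close to 0.

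To show the control regions of the ligand and receptor that rose most, and of a ligand that fell, the 250 bases before the transcription start of Pdgfra, Pdgfc and Pdgfa are given, 5′ to 3′ on the gene's own strand, from RefSeq (GRCm38.p6). The table used holds Pdgfra, Pdgfc, Pdgfd, Cspg4 and Pdgfa (with 2 starts), which is 5 of the 8 genes, and has no entry for Pdgfb, Pdgfrb or Pdgfrl. Capitals mark matches on either strand to the GC box GGGCGG, the TATA box TATAAA, the CCAAT box, the E box CACGTG or the AP-1 site TGANTCA.
Pdgfra, chr5:75152001-75152250, plus strand: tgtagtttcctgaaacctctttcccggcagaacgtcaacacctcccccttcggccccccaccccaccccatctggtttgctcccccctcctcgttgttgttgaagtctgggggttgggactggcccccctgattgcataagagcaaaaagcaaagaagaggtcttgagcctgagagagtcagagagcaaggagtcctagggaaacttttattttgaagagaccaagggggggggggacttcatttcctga
Pdgfc, chr3:81036166-81036415, plus strand: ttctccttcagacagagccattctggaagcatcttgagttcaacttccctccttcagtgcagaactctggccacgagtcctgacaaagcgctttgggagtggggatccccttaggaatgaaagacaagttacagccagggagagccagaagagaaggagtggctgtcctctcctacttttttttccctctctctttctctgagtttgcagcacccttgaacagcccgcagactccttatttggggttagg
Pdgfa, upstream start, chr5:138994945-138995194, minus strand: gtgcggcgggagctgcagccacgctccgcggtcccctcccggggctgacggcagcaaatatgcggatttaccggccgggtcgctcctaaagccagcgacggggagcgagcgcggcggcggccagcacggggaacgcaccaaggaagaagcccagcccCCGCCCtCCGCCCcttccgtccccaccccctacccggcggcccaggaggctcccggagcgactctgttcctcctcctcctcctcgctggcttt
The Pdgfra and Pdgfc windows held none of these letter strings, and the Pdgfa window held 2 GC boxes that do not overlap, at −93 to −88 and −86 to −81 from the start. Among 32851 promoter windows of the same length the GC box was found in 32.7%, the TATA box in 12.4%, the CCAAT box in 33.8%, the E box in 6.02% and the AP-1 site in 6.75%. Of the windows not printed, Cspg4 held 2 GC boxes, the downstream Pdgfa start held 1, and Pdgfd held a TATA box at −160 to −155. The share of G and C was 54.4% for Pdgfra, 50.8% for Pdgfc and 72.4% for Pdgfa, beside a median of 52.4% over all windows, and Pdgfa held 28 CpG pairs against 4 for Pdgfra and 3 for Pdgfc. A match is a description of letters, and no match says nothing of the factors that bind there.

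The 8 genes lie on chromosomes 3, 5, 8, 9, 15 and 18, and some sit beside relatives. Pdgfra lies on chromosome 5 between Gsx2 and Kit, the receptor of stem cell factor, with the VEGF receptor gene Kdr next. While Pdgfra rose, Kit stayed under background in both genotypes (means 4.62 and 4.59, limma adjusted p = 0.81), Gsx2 had means of 4.68 in both (adjusted p = 0.96), and Kdr, also under background, fell by 0.44 on the log2 scale (adjusted p = 0.017). Csf1r, the receptor of colony-stimulating factor and the measured neighbour of Pdgfrb, had means of 4.64 and 4.62 (adjusted p = 0.86) where Pdgfrb was above 11 on every array. Next to Pdgfc, the glycine receptor gene Glrb rose by 1.89 and Ctso by 0.34 on the log2 scale. Pdgfa lay between Fam20c and Prkar1b, which fell by 0.59 and 0.71. Among the 2 measured genes on each side of all 8 members, a choice made after their values were seen, 16 of 32 passed (background 31.6%), 10 of them in the direction of their PDGF neighbour.

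By distance between profiles over the 6 arrays, each centred on its own mean, the genes nearest to Pdgfra were Mab21l1 (distance 0.31, log2 difference +3.21), the glucose transporter gene Slc2a10 (0.36, +3.01) and the netrin receptor gene Unc5c (0.39, +3.01), and wild-type Pdgfra, Mab21l1 and Unc5c all had means under background. Nearest to Pdgfc were Col11a1, a chain of fibrillar collagen (0.17, +1.76), Aebp1 (0.20, +1.66) and Kazald1 (0.21, +1.79, wild-type mean 4.84, under background). Those nearest to Pdgfb were Reep2 (0.17, −1.97), Pir (0.27, −2.003) and Mgarp (0.27, −1.98). With 6 arrays in 2 genotypes, these profiles mostly share the size of the difference between genotypes.

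Of 14 genes for proteins that process or bind PDGF outside the cell or on its way out, 6 rose and none fell (42.9% called beside 31.6% of all genes, median log2 difference +0.16 beside −0.01 over all genes), and 4 had means under background in both genotypes. Plau, the urokinase that can activate PDGF-D, rose by 0.98 (SE 0.07), together with Nrp1, a co-receptor (+0.93), the proprotein convertase Pcsk6 (at least +0.61 against background) and the collagen cross-linking oxidase Lox (+2.40). Plat, the tissue plasminogen activator that cuts PDGF-C, had means of 9.11 and 9.26 (limma adjusted p = 0.21), and the convertase Furin, which processes the A and B chains, differed by −0.07 (adjusted p = 0.49).

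Inside the cell, 14 of 28 measured genes of proteins that act directly behind the receptors passed, 5 higher and 9 lower (50% beside 31.6% of all genes, median −0.05). None of the 28 was under background in both genotypes, and of the 9969 genes above the median level 5337 passed. The 50% is thus not above the share among the genes over that level. The phosphoinositide 3-kinase subunit gene Pik3cb fell by 1.70 and the docking protein gene Gab2 by 1.09, while Pik3r1 (+0.94) and the exchange factor gene Vav3 (+1.12) rose. Of 11 genes for receptor turnover and phosphatases none rose and 5 fell (45.5%, median −0.15), among them Acp1 (−0.74), Cd2ap (−0.73), Ptpn2 (−0.40) and Ptpn12 (−0.36). Among 23 immediate-early and early response genes, which growth factors are known to induce, 4 rose and 5 fell (39.1%, median −0.04). The turnover list and the early response list each had 1 gene under background in both genotypes. Neither share was above that among the genes over the median level. With the replicate number as a block, 6 rose and 7 fell. Dusp6, a phosphatase of the ERK pathway, fell by 1.74, Fosl1 by 1.41 and Fosl2 by 1.33, and Klf6 rose by 0.77. These are RNA levels of the pathway's genes and do not measure receptor activity.

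Of 15 ligands and partners of NG2, 8 rose and 5 fell (86.7% called beside 31.6% of all genes, median +0.24). The collagen VI chain Col6a3, part of a matrix ligand of NG2, rose by at least 2.91 against background and the phosphatase Ptprz1 by at least 5.67, while the integrin chain Itga3 fell by 2.85 and the galectin Lgals3 by 1.44. Ptprz1 is also counted among the oligodendrocyte lineage and neural precursor markers below, and its tie to NG2 was not examined. Of the class III receptor kinase family to which the PDGF receptors belong, Kit, Csf1r and Flt3 lay under background in both genotypes. Of the 7 genes of these receptors and their ligands 57.1% were called. Flt3l rose (+0.67) and Kitl (−1.19), Csf1 (−1.05) and Il34 fell, the last with means of 5.49 and 5.01, both under background. Of 9 genes of the related VEGF family 4 rose and 4 fell (88.9% called). Nrp2 (+1.44), Vegfd (+0.82), Vegfc (−1.45 against background as a bound) and Flt4 (−0.80, likewise) were among them. The called Kdr and Pgf had means under background in both genotypes.

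**Figure D4:**
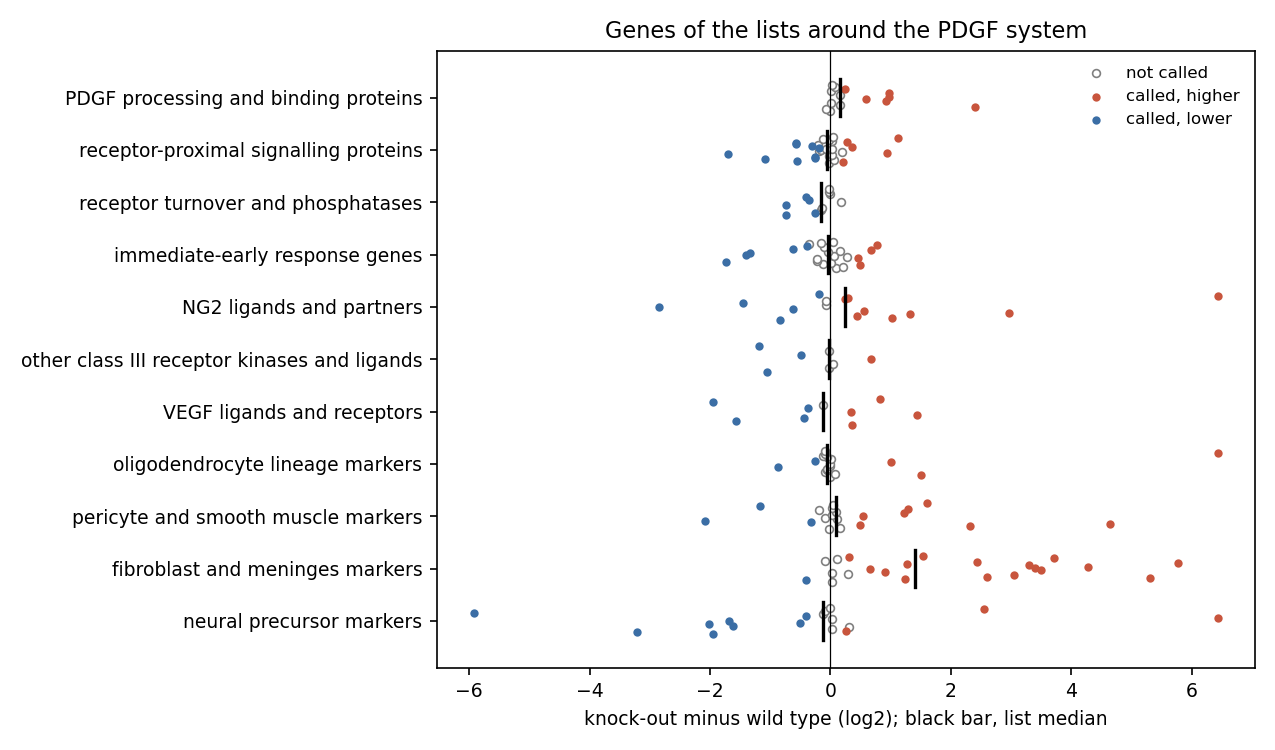
Log2 difference (knock-out minus wild type) of each gene in the lists around the PDGF system, filled where limma's adjusted p was under 0.05 (red higher, blue lower) and open where it was not, with the list median as a black bar. The fibroblast and meninges list has a median of +1.41 with 16 of 22 genes higher, whereas most oligodendrocyte lineage markers lie near 0.

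The cell types known for these receptors were read from their markers. Defining oligodendrocyte lineage markers were under background in both genotypes, with means of 4.997 and 5.01 for Olig1, 4.76 and 4.70 for Olig2 and 5.07 and 4.97 for Sox10 (limma adjusted p of 0.30 or more). Of 17 such markers 3 rose (Ptprz1, Bmp4, +1.502, and Myrf, +1.00), 2 fell (Mbp, −0.87, and Nkx2-2, under background in both genotypes) and 12 were not called (29.4% called beside 31.6% of all genes, median −0.05). Of the 12 not called, all but Cnp (means 8.34 and 8.42) were under background in both genotypes. The log2 of the list's summed level was 11.19 to 11.29 for wild type and 12.91 to 12.96 for knock-out, and Ptprz1 (4.92 to 11.35) and Bmp4 (10.57 to 12.08) had the largest rises in it. Of 19 pericyte and smooth muscle markers 7 rose and 3 fell (52.6% called), with summed levels of 13.92 to 14.12 and 14.40 to 14.56. Cnn1 (+4.65), Anpep (+2.31), Zic1 (at least +1.32 against background) and Rgs5 (from 5.18, under background, to 6.47) were among those that rose. Foxf2 fell (−1.80 against background as a bound), as did Tbx18 (from 10.39 to 9.23, limma adjusted p = 5.6e-06) and Des, under background in both genotypes. Notch3, Acta2 and Tagln, above background in both genotypes, were not called (adjusted p of 0.19, 0.18 and 0.91). The pericyte channel genes Abcc9 and Kcnj8 were under background in both genotypes.

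Most fibroblast and meninges markers rose in knock-out cells. Of 22 measured, 16 rose and 1 fell (77.3% called beside 31.6% of all genes, median +1.41). The log2 of their summed level was 13.67 to 13.81 on wild-type and 15.28 to 15.35 on knock-out arrays. Postn rose by 5.77, Col1a2 by 5.30, Foxc2 by at least 3.90 and Thy1 by at least 3.47 against background, and Col1a1, already at 11.25 in wild-type cells, by 1.23. The marker that fell was Cd34 (means 9.25 and 8.85, limma adjusted p = 0.0049). Dcn (7.06 and 7.35) and Ptgds (6.54 and 6.46), above background in both genotypes, were not called (adjusted p of 0.36 and 0.44). Slc6a13, Aldh1a2 and Dpt had means under background in both genotypes. Of 17 markers of the labelled neural precursor type 3 rose and 8 fell (64.7% called), with summed levels of 14.61 to 14.72 and 14.29 to 14.33. Sox2 fell from 11.26 to 5.35, under background, Fabp7 by 3.21 and Nes by 2.01 to a mean of 8.72, while Ptprz1, the largest change of this list, rose from 4.92 to 11.35 and Sox9 by 2.56. Vim, an intermediate filament gene of precursors and of connective tissue cells, had means of 13.53 and 13.52 (adjusted p = 0.93). The knock-out cells, though labelled neural precursor-like, thus had no Sox2 signal above background. The part of these cell type markers in the differences of the PDGF genes was not tested.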

How the data were processed

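Total RNA (250 ng) of 6 samples was hybridized to Mouse Gene 1.0 ST arrays of Affymetrix, each sample on its own array. The deposited table gives log2 values per probe set, a scale judged from their range. The submitters' processing notes name Partek without a version. Not given in the sources used here are the background correction, normalization and summarization of probes, so any scaling between arrays is unknown, and the values were used as deposited.

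Of 35556 probe sets, GEO's platform annotation gave 1 symbol to 21789, several to 1621 and none to 12146. Where a gene had more than 1 probe set, that of highest mean across the arrays stood for it, leaving 19938 genes. Genotype and replicate number came from the sample titles, and no sample was left out. Symbols in older use were matched through the reference gene table (GRCm38.p6), which also gave the order of neighbouring genes. Knock-out was compared with wild type with limma 3.58.1 in R 4.3.3 (lmFit, eBayes without a trend, 4 residual degrees of freedom before moderation). The p-values were adjusted by Benjamini-Hochberg over all genes, and a gene is said to have risen, fallen or passed at an adjusted p under 0.05. Differences are knock-out minus wild type. The steps were tested on simulated data.

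The members, lists and tests were chosen with earlier results of these data known, so counts are descriptions beside the share of all genes. The text names all 8 members, the genes of a list that passed with the largest differences (up to 4), defining markers of cell types, and the 3 nearest profiles of members that passed at 2-fold or more. Other names were chosen after their values were seen, namely Plat, Furin, Kit, Csf1r, Flt3, Olig1, Nkx2-2, Abcc9, Kcnj8, Tbx18, Des, Notch3, Acta2, Tagln, Cd34, Dcn, Ptgds, Slc6a13, Aldh1a2, Dpt, Pecam1, Cdh5, Kdr, Pgf, Cnp, Vim, the sex-chromosome genes and the members' neighbours, as was the background level.

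Both genotypes carry the replicate numbers 1 to 3 in the titles. After subtraction of the genotype mean, values correlated at 0.19 to 0.29 between arrays of the same number (3 pairs) and −0.18 to −0.0047 between different numbers (6 pairs), over genes, which are not independent replicates. The numbers thus count as pairs, by the rule that each same-number pair exceeds 0.1, while the tests were set without a block. Alternatives were the replicate block, quantile normalization, centring on the median, filters on low values, other treatments of probe sets, other variance models, a threshold of 0.01 and each array left out.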

Additional observations from a re-analysis of the deposited data

How the results depend on the processing

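The 8 PDGF genes kept their direction under all 17 alternatives run for each. Pdgfra, Pdgfc, Pdgfb, Pdgfa, Pdgfd and Cspg4 also passed under all of them, with log2 differences of 2.92 to 3.17 for Pdgfra, 1.68 to 1.84 for Pdgfc and −2.04 to −1.80 for Pdgfb. Pdgfrl lost its call without moderation only, and Pdgfrb in 7 settings. Besides the arrays left out in turn these were centring on the median (+0.18, adjusted p = 0.073), no moderation (adjusted p = 0.084) and the threshold of 0.01. The cause was not tested. With the replicate block limma called 7000 genes, 6279 of them among the 6296, and all 8 members, and it changed the count of the neuron marker list from 3 to 5. The block changed no other call of a member or count of a list by more than 1.5 times. Within that limit, the count of the immediate-early list went from 9 to 13 of 23. Leaving out each array gave 5485 to 5803 genes called, 7 to 8 members called and a Pdgfra minus Pdgfrb contrast of 2.64 to 2.97, which like the 2.83 of all arrays includes wild-type Pdgfra under background (2.44 with Pdgfra held at that level). Wild-type Pdgfra and knock-out Pdgfb lie at background, which limits their folds.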

Other observations

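Markers of other cell types that can carry PDGF ligands or receptors were read in the same limma fit, at an adjusted p under 0.05 and beside 31.6% of all genes. Of 8 astrocyte markers 1 rose and 2 fell, with the water channel Aqp4 falling from 7.46 to 5.36, under background, and 5 were under background in both genotypes. Of 12 neuron markers 1 rose and 2 fell, and 9 were under background in both genotypes. Of 11 endothelial markers, a cell type that secretes PDGF-B in vessels, 4 rose and 1 fell, and 7 were under background in both genotypes, among them Pecam1, Cdh5 and Kdr, the marker that fell. Erg rose from 5.37 to 9.97 and Tek from 5.07 to 8.21, both from under background. Of 11 microglia and leukocyte markers 1 passed (Tmem119, +2.12) and 9 were under background in both genotypes. Among 8 markers of the neural crest and of Schwann cells, Snai2 rose by 3.05 and 3 fell.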
